A study of Mus musculus with 24 samples.

Results

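The 10 genes described here carry the decision of a cell to leave G1 and copy its DNA: the D-type cyclins Ccnd1, Ccnd2 and Ccnd3, their kinase partners Cdk4 and Cdk6, the CIP/KIP inhibitors Cdkn1a, Cdkn1b and Cdkn1c, the INK4 inhibitor Cdkn2c, and Rb1, the brake they act on. They were chosen by symbol, and all 10 were found among the 24004 genes of the deposited table of estimated counts. The data are RNA-seq libraries of mammary epithelial cells from Id4 knockout (KO) and wild-type (WT) females of the inbred mouse strain FVB/N, 10 to 12 weeks old and in estrus. Both genotypes share strain, sex, age and cycle stage, and each replicate pooled the glands of 4 to 8 mice. Live, lineage-negative cells were sorted on CD24, CD29 and CD61 into basal cells (CD29 high, CD61 positive), luminal progenitors (LP; CD29 low, CD61 positive) and mature luminal cells (ML; CD29 low, CD61 negative). There were 4 replicates in each of KO basal, WT basal, KO LP, WT LP, KO ML and WT ML, or 24 libraries. The labels name the knockout allele only by the earlier work that made it, and the sources used here do not say which bases are missing from it. Replicates are biological by the study's design text, but nothing ties a replicate number to an animal pool.

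A D-type cyclin binds CDK4 or CDK6, and the active pair phosphorylates RB1, which then releases the E2F factors that switch on genes for DNA replication. INK4 proteins bind the kinases and keep them from cyclins, while p21 (Cdkn1a), p27 (Cdkn1b) and p57 (Cdkn1c) bind cyclin and kinase together. In the mouse mammary gland cyclin D1 is best known for its requirement in the lobuloalveolar growth of pregnancy. ID4 is a helix-loop-helix protein without a DNA-binding region. It pairs with E proteins, which otherwise bind E boxes (CANNTG), and E proteins are known to activate Cdkn1a in cultured cells.

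Promoter sequence is shown for the kinase pair, whose members had different patterns across the populations, and for Cdkn1a, the most abundant inhibitor. Each is the 250 bases before a RefSeq start on GRCm38.p6, plus strand, 5′ to 3′, and capitals mark every CANNTG. The Cdk4 window is chr10:127063285-127063534 and the Cdk6 window chr5:3343643-3343892. The Cdkn1a window, before the more downstream of 2 listed starts, is chr17:29093519-29093768.
Cdk4: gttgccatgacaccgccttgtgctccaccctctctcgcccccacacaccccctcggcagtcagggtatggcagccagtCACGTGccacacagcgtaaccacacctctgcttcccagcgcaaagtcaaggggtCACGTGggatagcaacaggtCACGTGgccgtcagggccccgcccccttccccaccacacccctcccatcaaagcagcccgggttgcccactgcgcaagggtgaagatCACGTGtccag
Cdk6: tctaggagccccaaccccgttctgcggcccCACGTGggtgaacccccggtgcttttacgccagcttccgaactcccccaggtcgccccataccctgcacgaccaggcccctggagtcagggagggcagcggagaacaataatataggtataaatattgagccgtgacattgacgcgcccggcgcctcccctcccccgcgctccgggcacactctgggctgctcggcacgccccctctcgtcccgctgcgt
Cdkn1a: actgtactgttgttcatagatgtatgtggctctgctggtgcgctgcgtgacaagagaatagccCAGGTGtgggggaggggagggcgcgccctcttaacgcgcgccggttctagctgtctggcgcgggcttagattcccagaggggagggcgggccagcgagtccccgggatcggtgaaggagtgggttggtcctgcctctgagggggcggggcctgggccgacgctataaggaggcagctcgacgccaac
The Cdk4 window held 4 copies of CANNTG, all of them CACGTG, the form that MYC binds with its partner MAX. The Cdk6 window held 1, also CACGTG. The Cdkn1a window shown held 1, CAGGTG, and the window before the other Cdkn1a start held none. CANNTG and CACGTG were searched once, since each reads as the same pattern on both strands, and copies of CACGTG are also counted under CANNTG. Among 32851 promoter windows of this length 66.2% held CANNTG, 6.02% held CACGTG, 0.0213% held at least 4 copies of CACGTG, and 17.2% held CACCTG or CAGGTG, which are the same letters on opposite strands. Of the 10 genes 6 had a promoter in the table used, with 9 windows in all. These matches describe letters and do not show binding.

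Library totals ran from 3098433 to 7246445 counts, so that 3 counts correspond to between 0.382 and 0.966 CPM, the library-scaled count used throughout (TMM scaling over the 24 libraries), and mitochondrial genes took 15.5% to 38.5% of counts. Replicate 3 had the lowest total in each of the 6 groups. The 12 basal markers summed to between 11500 and 16500 CPM in KO basal and between 9250 and 16300 CPM in WT basal, against at most 285 CPM in the luminal libraries. Luminal progenitor markers summed to between 7430 and 15000 CPM in KO LP and between 8360 and 48500 CPM in WT LP, and mature luminal markers to between 5470 and 10400 CPM in KO ML and between 8140 and 10500 CPM in WT ML. WT basal replicate 2 stood apart, with a luminal progenitor marker sum of 11400 CPM against 326 to 585 CPM in the other WT basal libraries. Csn2, a milk protein gene, was the most abundant of these markers in WT basal, at a mean of 1700 CPM. Replicate 2 had the highest such sum in every other group too. It was 2330 CPM in KO basal, 15000 CPM in KO LP, 48500 CPM in WT LP, 1900 CPM in KO ML and 1330 CPM in WT ML. WT basal replicate 2 had a median Spearman correlation of 0.777 with its group. KO basal replicate 3 had the lowest such correlation (0.739) and an endothelial marker sum of 252 CPM, and KO LP replicate 3 the lowest in LP (0.863). Id4 read 10.2, 1.12, 10.9 and 0.931 CPM in KO basal, against 86.2, 13.3, 28.8 and 38.7 CPM in WT basal, and at most 1.38 CPM in any luminal library. All KO basal values lay below all WT basal values.

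Between populations, 4 of the 10 genes passed the test in both genotypes. Ccnd2 was higher in basal cells than in either luminal population, Rb1 was higher in LP than in basal cells and ML, Cdk6 was higher in LP than in ML, and Cdkn1a was higher in basal cells than in ML. No KO to WT difference of the 10 genes passed in any population. Among the populations, Cdk4, Ccnd3, Cdkn1b, Cdkn1c and Cdkn2c passed in none of the 6 contrasts in the main edgeR fits. With voom and sample weights Cdkn1c and Cdkn2c passed in some of them. Cdkn2c also passed in WT basal over ML with DESeq2 and in some other edgeR fits, and Cdkn1c in KO basal over ML in an edgeR fit without 1 library. Calls are edgeR quasi-likelihood tests with a Benjamini-Hochberg adjusted p under 0.05 over all genes tested. The share of all genes called is the background against which the counts of these 10 stand. For KO basal over LP it was 14.8% of 12711 genes (8.12% higher, 6.69% lower), against 1 higher and 1 lower among the 10. KO basal over ML called 19.4% (11.9% higher, 7.51% lower), against 2 higher and 0 lower, and KO LP over ML called 5.67% (4.08% higher, 1.59% lower), against 3 higher and 0 lower. In the WT libraries basal over LP called 15.8% of 12771 genes (9.12% higher, 6.68% lower), against 1 higher and 3 lower. In WT basal over ML 24.6% were called (14% higher, 10.6% lower), against 3 higher and 0 lower. WT LP over ML called 11.5% (6.62% higher, 4.89% lower), against 2 higher and 0 lower. Fewer cells of a kind and less RNA per cell cannot be told apart in these pooled samples. The median log2 fold change of the 10 in these 6 contrasts, in the order given, was -0.23, 0.73, 0.33, 0.43, 0.89 and 0.72, and that of all genes lay between -0.033 and 0.020. Without WT basal replicate 2 the median of the 10 was -0.29 for WT basal over LP and 0.42 for WT basal over ML.

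**Figure D1:**
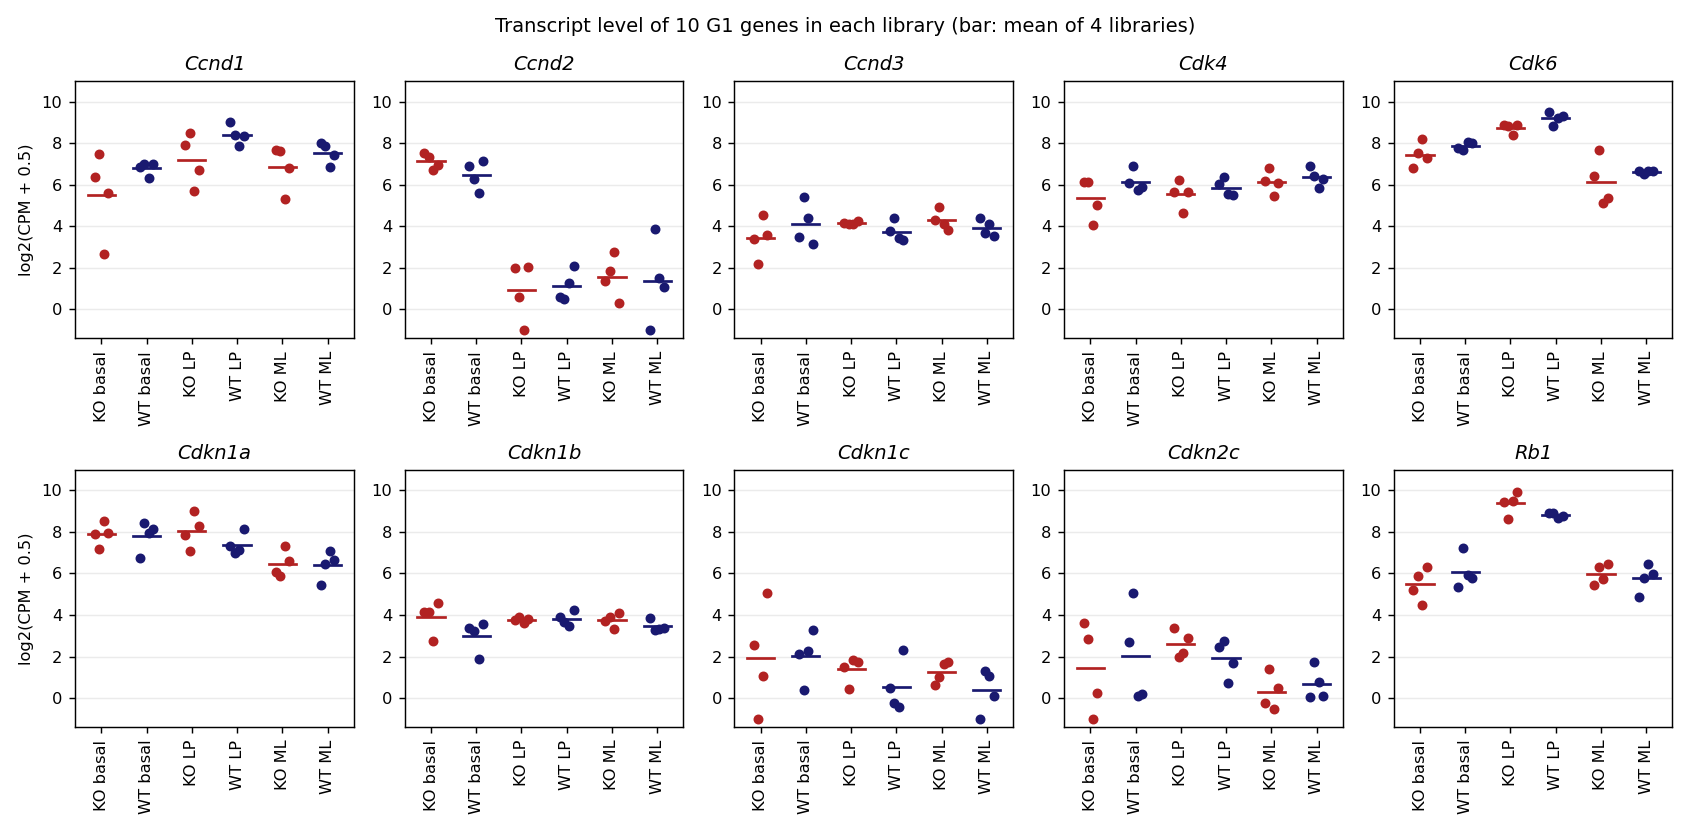
Level of each of the 10 genes as log2(CPM + 0.5) in every library, in red for KO and dark blue for WT, with a bar at the mean of 4 libraries. Ccnd2 sits above 6 in most basal libraries and below 4 in every luminal library, Rb1 and Cdk6 peak in LP, and the libraries of Cdk4, Ccnd3 and Cdkn1b overlap across groups.

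Ccnd1 encodes cyclin D1 and lies on mm10 chromosome 7 from 144929931 to 144939925, minus strand (ENSMUSG00000070348). It had 81.2, 177, 5.80 and 48.2 CPM in KO basal (replicates 1 to 4, the order used throughout) and 116, 126, 80.4 and 127 CPM in WT basal. LP libraries had 239, 364, 51.6 and 103 CPM in KO and 519, 337, 232 and 322 CPM in WT. ML libraries had 202, 200, 38.9 and 113 CPM in KO and 260, 233, 115 and 172 CPM in WT. WT LP was above every WT basal library, the KO groups overlapped one another, and replicate 3 was the lowest library of all 6 groups. In KO cells the means were in the order LP, ML and basal (189 ± 141, 138 ± 78.1 and 78.0 ± 72.8 CPM, SD, n = 4), and no contrast passed in the fit without a replicate term, with basal over LP at -1.19 (SE 0.73, edgeR adjusted p = 0.32). Without KO basal replicate 3 it was -0.86 (adjusted p = 0.399). With a replicate block KO basal passed as lower than both LP and ML. The replicate numbers were not taken to pair these libraries, and the values are in the last section. In WT cells basal was lower than LP (log2 fold change -1.62, SE 0.28, edgeR adjusted p = 0.000897), while basal against ML (-0.75, adjusted p = 0.0599) and LP against ML (0.87, adjusted p = 0.0551) missed the threshold. The WT means had the same order (353 ± 120, 195 ± 64.5 and 112 ± 21.9 CPM, SD, n = 4), with neighbours that did not pass. The WT basal over LP call was lost where the spread was taken from all 24 libraries (-1.63, adjusted p = 0.108). WT basal against ML passed without WT basal replicate 2 (-0.82, adjusted p = 0.0484), WT LP replicate 1 (-0.76, adjusted p = 0.044) or WT ML replicate 3 (-0.95, adjusted p = 0.0208). WT LP against ML passed without WT basal replicate 2 (adjusted p = 0.0388), WT LP replicate 3 (adjusted p = 0.0394) or WT ML replicate 1 (adjusted p = 0.0443). WT LP against ML also passed with DESeq2 and voom, and both WT contrasts with ML passed with the replicate block or no expression filter.

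Ccnd1 shares 1100 exon bases with Oraov1 (LTO1 in the annotation, under the same gene ID) on the opposite strand, and no source used here states whether counting used strand. Reads from the shared bases could therefore not be told apart. Oraov1 averaged 21.1 ± 21.7 CPM in KO basal, 30.6 ± 10.7 CPM in WT basal, 48.5 ± 27.8 CPM in KO LP and 93.1 ± 34.2 CPM in WT LP. It was also the gene whose pattern over the 24 libraries was most like that of Ccnd1 among 12395 compared, with a mean absolute difference of 0.41 in centred log2(CPM + 0.5). Ppm1h, a phosphatase gene, and Cks1b, which encodes a small CDK-binding protein, came next at 0.47 and 0.49.

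Ccnd2 (ENSMUSG00000000184) encodes cyclin D2 and lies on chromosome 6 from 127125162 to 127152193, minus strand. It had 183, 160, 105 and 124 CPM in KO basal and 120, 76.9, 48.1 and 141 CPM in WT basal. LP libraries had 3.46, 1.03, 0 and 3.67 CPM in KO and 1.02, 0.896, 1.87 and 3.79 CPM in WT. ML libraries had 2.07, 3.11, 6.21 and 0.717 CPM in KO and 0, 14.2, 2.37 and 1.61 CPM in WT. Every basal library was above every luminal library in both genotypes, and WT ML replicate 2 was the highest luminal value. Basal was higher than LP in KO cells (log2 fold change 6.17, SE 0.75, edgeR adjusted p = 3.1e-05) and in WT cells (5.68, SE 0.97, edgeR adjusted p = 0.000752). Basal was also higher than ML in KO cells (5.64, SE 0.73, edgeR adjusted p = 3.5e-05) and in WT cells (4.46, SE 0.90, edgeR adjusted p = 0.00178). LP and ML, at 0 to 81 counts a library, did not differ beyond their spread. The genes most like Ccnd2 over the 24 libraries were Bmp7, a secreted ligand, Irx4, a homeobox factor, and Clip3, a microtubule-associated protein, at 0.62, 0.67 and 0.69. Bmp7 averaged 108 CPM in KO basal and 96.4 CPM in WT basal and at most 4.40 CPM in a luminal group.

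Ccnd3, for cyclin D3 (ENSMUSG00000034165; chromosome 17, 47505051 to 47599691, plus strand), was the least abundant D cyclin by counts in WT basal and varied widely in basal cells. It ran from 4.09 to 23.2 CPM in KO basal and from 8.26 to 42.5 CPM in WT basal, where the top value was replicate 2. LP held 16.6 to 18.9 CPM in KO and 9.47 to 20.6 CPM in WT, and ML 13.8 to 29.6 CPM in KO and 11.1 to 20.9 CPM in WT. All groups overlapped. WT basal over LP was 0.65 (adjusted p = 0.447) with replicate 2 and 0.00014 without it. Ccnd3 shares 361 exon bases with Bysl on the opposite strand, which averaged between 8.49 and 13.1 CPM in the 6 groups.

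To set the D cyclins side by side, each level was divided by the deposited gene length. Ccnd1 made up 33.7 ± 23.0% of the summed D cyclin level in KO basal and 52.8 ± 2.36% in WT basal (SD, n = 4). Its share was 78.8 ± 13.3% in KO LP, 92.8 ± 2.53% in WT LP, 74.1 ± 14.4% in KO ML and 85.5 ± 4.99% in WT ML. Ccnd2 took 50.9 ± 9.90% in KO basal and 29.2 ± 10.2% in WT basal, with ranges of 36.3% to 58.5% and 19.8% to 39.3% that overlapped, and at most a mean of 1.81% in a luminal group. The summed level of the 3 cyclins was 52.0 ± 20.4 CPM per kilobase in KO basal and 57.1 ± 12.2 in WT basal, 59.6 ± 37.5 in KO LP and 101 ± 32.6 in WT LP, and 47.3 ± 23.1 in KO ML and 60.4 ± 18.2 in WT ML. These shares are descriptions and were not tested.

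**Figure D2:**
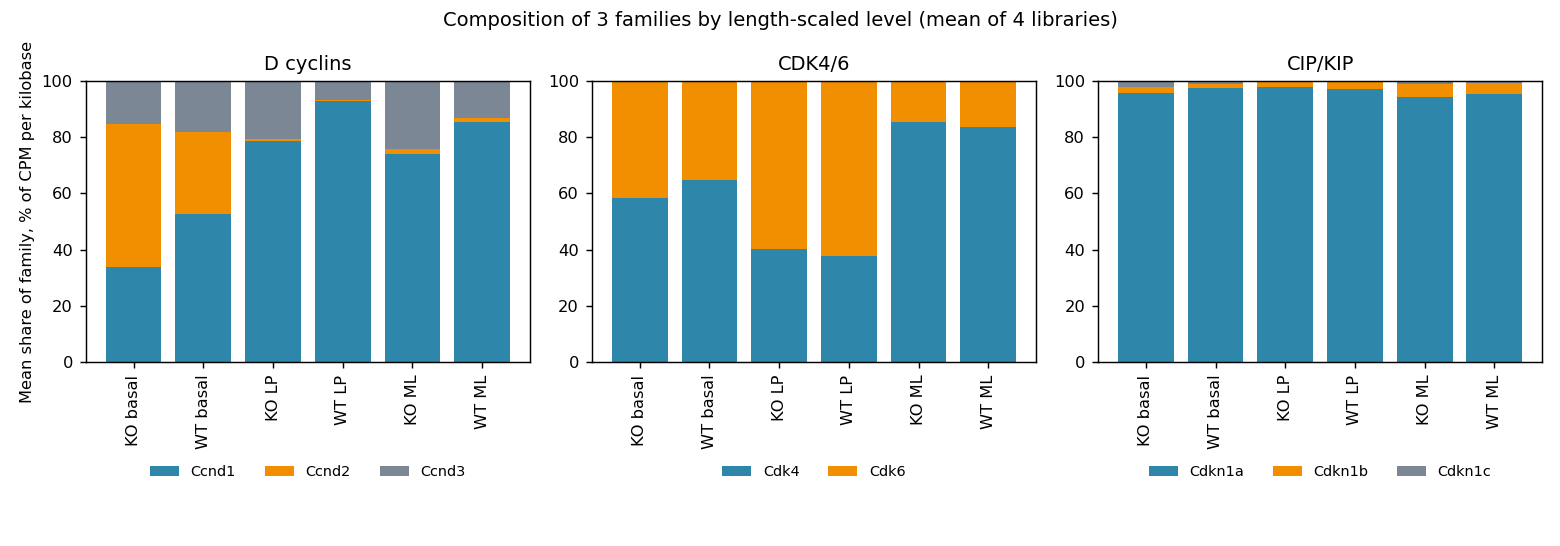
Stacked bars of the mean share of each gene in its family, in percent of the summed CPM per kilobase, for the D cyclins, the kinases and the CIP/KIP inhibitors in 6 groups of 4 libraries. Ccnd2 takes a mean of 50.9% of the D cyclin bar in KO basal and 29.2% in WT basal, against at most 1.81% in a luminal group, Cdk6 is the larger kinase share in LP, and Cdkn1a fills over 94% of every CIP/KIP bar.

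Cdk4 and Cdk6 encode the kinases that D cyclins activate. Cdk4 (ENSMUSG00000006728; chromosome 10, 127063534 to 127067920, plus strand), with the 4 copies of CACGTG above, had 70.9, 70.7, 16.4 and 32.6 CPM in KO basal and 68.0, 118, 52.4 and 59.6 CPM in WT basal. LP libraries had 49.9, 73.9, 24.6 and 50.6 CPM in KO and 65.3, 81.4, 46.3 and 45.0 CPM in WT. ML libraries had 71.3, 111, 44.2 and 66.5 CPM in KO and 118, 85.1, 57.4 and 77.9 CPM in WT. All groups overlapped, and no contrast between populations passed, with log2 fold changes from -0.55 to 0.36. In WT cells basal over LP was 0.36 with a 95% interval of -0.29 to 1.00, and 0.039 without WT basal replicate 2, the highest Cdk4 value of its group. Cdk4 shares 641 exon bases with Tspan31 on the opposite strand, which averaged between 14.7 and 47.8 CPM.

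Cdk6 (ENSMUSG00000040274; chromosome 5, 3341485 to 3531008, plus strand) separated the populations far more. It had 112, 184, 291 and 154 CPM in KO basal and 215, 204, 267 and 260 CPM in WT basal. LP libraries had 473, 452, 340 and 471 CPM in KO and 721, 457, 601 and 645 CPM in WT. ML libraries had 85.6, 205, 34.4 and 40.7 CPM in KO and 100, 90.9, 101 and 100 CPM in WT. In KO cells the order of the means was LP, basal and ML (434 ± 63.4, 185 ± 76.7 and 91.5 ± 79.2 CPM), and LP was higher than ML (log2 fold change 2.25, SE 0.48, edgeR adjusted p = 0.00877). KO basal against LP (-1.13, adjusted p = 0.113) and against ML (1.11, adjusted p = 0.106) missed the threshold. Without KO basal replicate 3 the first was -1.51 (adjusted p = 0.0449), and without KO ML replicate 2, whose 205 CPM overlapped the basal range, they were -1.10 (adjusted p = 0.0401) and 1.93 (adjusted p = 0.00239). KO basal against LP also passed with voom (-1.61, adjusted p = 0.0361) and with the spread taken from all 24 libraries (-1.20, adjusted p = 0.0204). KO basal against ML passed in the latter as well (1.03, adjusted p = 0.0413). KO basal and KO LP libraries did not overlap. In WT cells the 3 populations did not overlap, in the same order. WT basal was lower than LP (-1.33, SE 0.20, edgeR adjusted p = 0.000199) and higher than ML (1.32, SE 0.20, edgeR adjusted p = 0.00015). WT LP was higher than ML by 2.64 (SE 0.21, edgeR adjusted p = 5.62e-06). The antisense gene that shares 368 exon bases with Cdk6 averaged at most 1.22 CPM in any group.

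Cdk6 made up 59.6 ± 7.95% of the summed kinase level per kilobase in KO LP and 62.1 ± 10.1% in WT LP. In basal cells it was 41.7 ± 23.5% in KO and 35.3 ± 10.3% in WT, and in ML cells 14.7 ± 6.17% in KO and 16.4 ± 4.25% in WT. Every ML library was Cdk4-rich, with a Cdk6 share of at most 22.8%, and every LP library had a Cdk6 share of at least 47.3%.

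**Figure D3:**
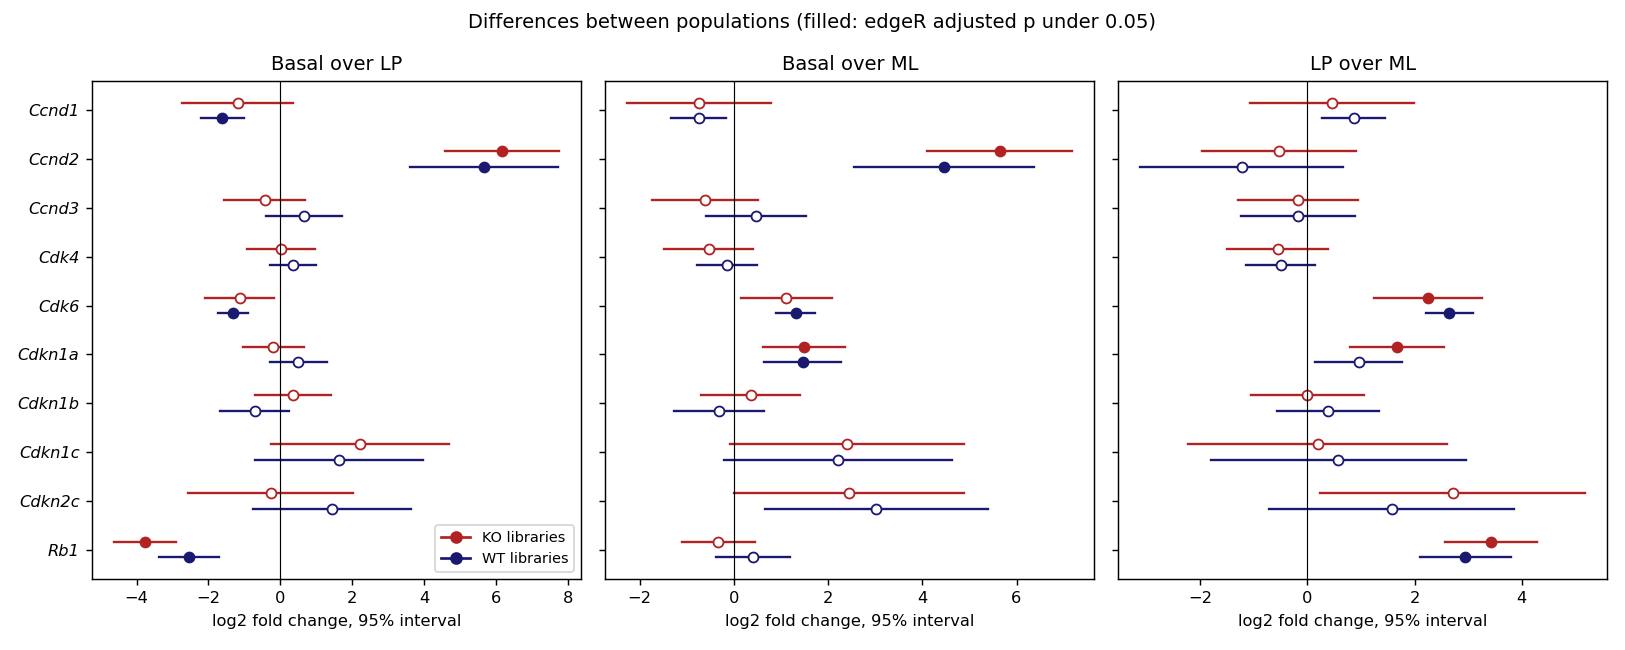
Log2 fold change with its 95% interval for each gene between populations, in red from the 12 KO libraries and in dark blue from the 12 WT libraries, with filled points for an edgeR adjusted p under 0.05. Ccnd2 lies far to the right in both contrasts with basal cells, Rb1 lies left of 0 for basal over LP and right of 0 for LP over ML, and Cdkn1a is higher in basal cells than in ML in both genotypes.

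Among the inhibitors Cdkn1a, which encodes p21, was by far the most abundant. Per kilobase it made up between 94.3% and 97.9% of the CIP/KIP sum on average in each of the 6 groups. Cdkn1a (ENSMUSG00000023067; chromosome 17, 29090976 to 29100727, plus strand) had 235, 143, 366 and 251 CPM in KO basal and 106, 344, 250 and 286 CPM in WT basal. LP libraries had 231, 137, 513 and 314 CPM in KO and 159, 125, 141 and 283 CPM in WT. ML libraries had 67.3, 58.5, 159 and 97.1 CPM in KO and 43.3, 88.1, 136 and 101 CPM in WT. ML was lowest on average in both genotypes, and 1 or more ML libraries overlapped the basal and LP ranges. Basal was higher than ML in KO cells (log2 fold change 1.48, SE 0.41, edgeR adjusted p = 0.0175) and in WT cells (1.46, SE 0.39, edgeR adjusted p = 0.0115). LP was higher than ML in KO cells (1.68, SE 0.42, edgeR adjusted p = 0.023), and in WT cells the value was 0.95 (adjusted p = 0.131). Basal and LP did not differ beyond their spread in KO (-0.19, adjusted p = 0.813) or WT cells (0.51, adjusted p = 0.433).

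The KO calls of Cdkn1a were lost when any 1 of several libraries was left out, in part with little change of the fold. Basal over ML was 1.17 (adjusted p = 0.0577) without KO basal replicate 3, 1.35 (adjusted p = 0.0604) without KO ML replicate 1 and 1.33 (adjusted p = 0.0533) without KO ML replicate 2. LP over ML was 1.26 (adjusted p = 0.105) without KO LP replicate 3 and 1.66 (adjusted p = 0.0608) without KO LP replicate 4. It was 1.51 (adjusted p = 0.105), 1.48 (adjusted p = 0.0759) and 1.68 (adjusted p = 0.0724) without KO ML replicates 1, 2 and 4. The WT basal over ML call held in each of 18 alternatives. Of the genes compared, Pcf11, a transcript cleavage factor, Spag9, a JNK scaffold, and Rel, an NF-kappaB subunit, were most like Cdkn1a over the 24 libraries, each at 0.35. Pcf11 averaged 686.5 CPM in KO basal and 564.5 CPM in WT basal, 593 CPM in KO LP and 582 CPM in WT LP, and 254 CPM in KO ML and 223 CPM in WT ML.

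Cdkn1b, for p27 (ENSMUSG00000003031; chromosome 6, 134920401 to 134925513, plus strand), passed in no population contrast. It averaged 15.95 ± 7.15 CPM in KO basal and 8.24 ± 3.50 CPM in WT basal, 13.2 ± 1.03 CPM in KO LP and 13.8 ± 3.40 CPM in WT LP, and 13.3 ± 3.03 CPM in KO ML and 10.7 ± 2.27 CPM in WT ML. All 6 ranges overlapped at least one other, and the population contrasts lay between -0.71 and 0.39 on the log2 scale. Its lowest library was replicate 3 in 5 of the 6 groups.

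Cdkn1c, for p57 (ENSMUSG00000037664; chromosome 7, 143458339 to 143461050, minus strand), and Cdkn2c, for p18 INK4C (ENSMUSG00000028551; chromosome 4, 109660876 to 109667189, minus strand), were near the limit of detection. Cdkn1c had 5.44, 0, 1.61 and 33.0 CPM in KO basal and 3.91, 0.794, 4.37 and 9.23 CPM in WT basal, and at most 4.42 CPM in any luminal library. Cdkn2c had 11.8, 6.70, 0 and 0.698 CPM in KO basal and 6.09, 33.2, 0.583 and 0.647 CPM in WT basal. In LP it ran from 3.45 to 9.99 CPM in KO and from 1.17 to 6.27 CPM in WT, and in ML it was at most 2.80 CPM. The basal values of both genes differed from library to library by more than any group difference. Cdkn2c in WT basal over ML was 3.02 (SE 1.11, edgeR adjusted p = 0.0593), and 1.00 (adjusted p = 0.463) without WT basal replicate 2, the library with the high luminal progenitor marker sum. It passed without WT basal replicate 3 (3.40, adjusted p = 0.0301) or replicate 4 (3.41, adjusted p = 0.0299), and with DESeq2 (adjusted p = 0.0133) or no expression filter (adjusted p = 0.0481). WT basal over LP was 1.44 (adjusted p = 0.408) with that library and -0.58 (adjusted p = 0.731) without it. The part of luminal progenitor RNA or of milk gene transcripts in these values was not tested. With voom and sample weights Cdkn2c passed in KO basal over ML (2.78, adjusted p = 0.0459), KO LP over ML (2.92, adjusted p = 0.0101) and WT LP over ML (1.97, adjusted p = 0.0445), and Cdkn1c in WT basal over LP (2.80, adjusted p = 0.0403) and WT basal over ML (2.84, adjusted p = 0.0117). Cdkn1c in KO basal over ML passed with edgeR without KO basal replicate 2, the library at 0 (2.77, adjusted p = 0.048). Plcd4, a phospholipase gene, Sfn and Me3, a malic enzyme gene, were nearest to Cdkn1c over the 24 libraries, at 0.60, 0.68 and 0.73. Sfn, which encodes 14-3-3 sigma, averaged 108 CPM in KO basal and 119 CPM in WT basal and between 46.3 and 67.6 CPM in the luminal groups.

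Rb1 (ENSMUSG00000022105; chromosome 14, 73183673 to 73325822, minus strand), the pocket protein that the kinases inactivate, had the largest LP over ML difference of the 10 genes in both genotypes. Basal libraries had 36.7, 58.8, 22.2 and 77.9 CPM in KO and 39.7, 147, 59.4 and 54.4 CPM in WT. LP libraries had 698, 392, 719 and 983 CPM in KO and 478, 475, 409 and 430 CPM in WT. ML libraries had 42.4, 79.6, 52.1 and 88.7 CPM in KO and 28.3, 53.8, 88.4 and 63.4 CPM in WT. No LP library overlapped a basal or ML library, and basal and ML overlapped each other. Basal was lower than LP in KO cells (log2 fold change -3.75, SE 0.41, edgeR adjusted p = 1.06e-05) and in WT cells (-2.54, SE 0.39, edgeR adjusted p = 0.000282). LP was higher than ML in KO cells (3.42, SE 0.40, edgeR adjusted p = 0.000143) and in WT cells (2.95, SE 0.40, edgeR adjusted p = 0.000167). Basal and ML did not differ beyond their spread in KO (-0.33, adjusted p = 0.591) or WT cells (0.40, adjusted p = 0.475). Without WT basal replicate 2, whose 147 CPM was the highest basal value, WT basal over LP was -3.10 (adjusted p = 6.12e-06) and WT basal over ML -0.16 (adjusted p = 0.729).

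Rb1 shares 488 exon bases with Rcbtb2 and 408 with Lpar6, both on the opposite strand. Neither had the LP peak: Rcbtb2 averaged 19.0 CPM in KO LP and 14.2 CPM in WT LP, below 32.5 CPM in KO ML and 26.8 CPM in WT ML, and Lpar6 averaged between 13.99 and 24.3 CPM in the 6 groups. In WT cells Rcbtb2 in LP over ML was -0.92 (adjusted p = 0.265), against 2.95 for Rb1.

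KO was then set against WT within each population, in fits without a replicate term, to see whether loss of Id4 changed these genes. In basal cells edgeR called 0 of the 10 (0 at an unadjusted p under 0.05), 0 of 10 in LP (2 at an unadjusted p under 0.05) and 0 of 8 in ML (0 unadjusted), where Cdkn1c and Cdkn2c were too low to test. DESeq2 and voom with sample weights also called 0 of them in each population. The background was as low: 0% of 11307 genes in basal cells, 0% of 11700 in LP and 0.00851% of 11747 in ML, which is 1 gene, Hspa1b, a heat shock chaperone lower in KO ML. Unadjusted, 383, 439 and 455 genes were under 0.05, and DESeq2 called 21, 4 and 11 genes and voom 1, 0 and 1. The libraries of KO and WT overlapped for every one of the 10 genes in every population, where 2.68%, 2.82% and 2.66% of all genes tested had libraries that did not overlap. The median log2 fold change of the 10 was -0.41 in basal cells, 0.24 in LP and -0.00032 in ML (8 genes), against medians of 0.011, 0.0029 and 0.0062 for all genes. The basal median of the 10 was 0.12 without WT basal replicate 2 and 0.083 without that library and KO basal replicate 3, so its sign rested on WT basal replicate 2.

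**Figure D4:**
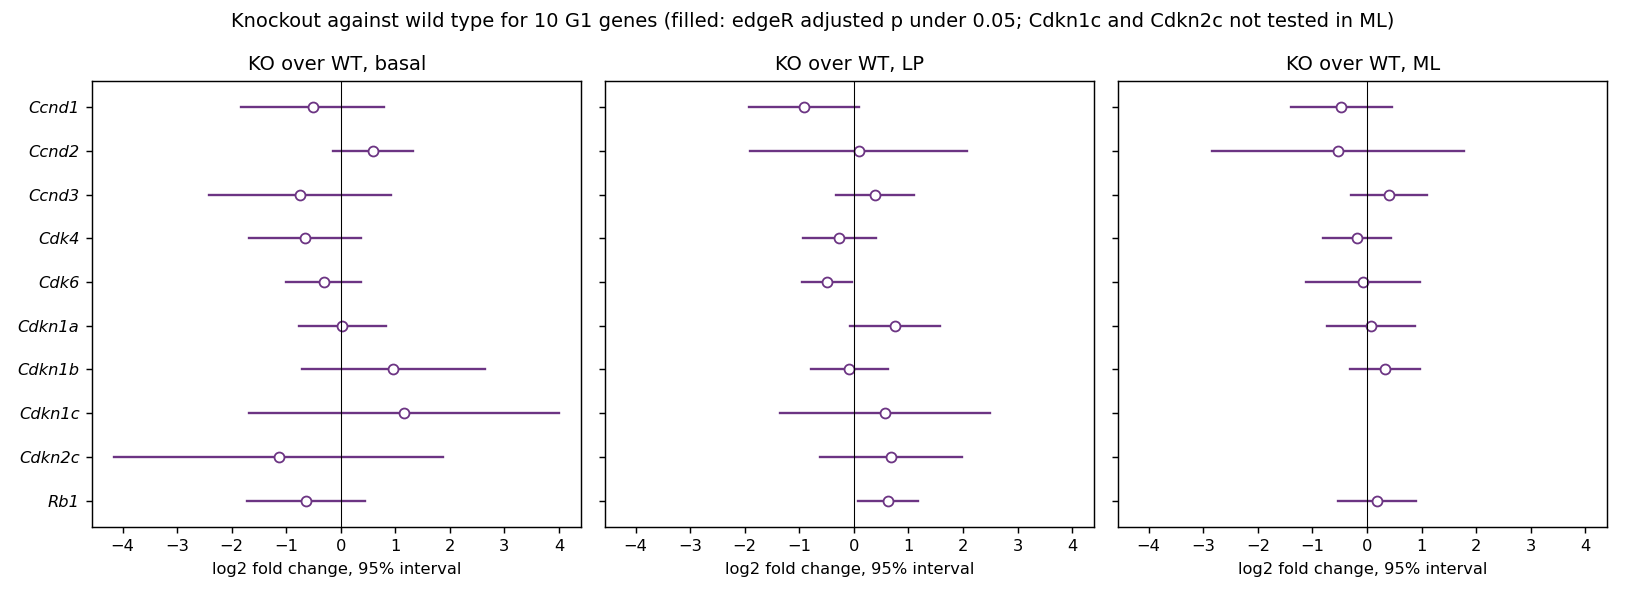
Log2 fold change of KO over WT with its 95% interval for each gene in basal, LP and ML cells, from 8 libraries a population. No point is filled, since none had an edgeR adjusted p under 0.05, and the intervals are widest for Cdkn1c and Cdkn2c in basal cells.

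Both unadjusted p under 0.05 were in LP. Cdk6 averaged 434 ± 63.4 CPM in KO LP and 606 ± 111 CPM in WT LP, with a log2 fold change of -0.50 (SE 0.21, unadjusted p = 0.0354, edgeR adjusted p = 0.999). Rb1 averaged 698 ± 242 CPM in KO LP and 448 ± 33.9 CPM in WT LP, or 0.63 (SE 0.26, unadjusted p = 0.0279, edgeR adjusted p = 0.999). KO replicate 2, at 392 CPM of Rb1, was below all WT LP libraries and the other KO LP libraries were above all of them. Ccnd1 was at -0.92 (95% interval -1.93 to 0.098) and Cdkn1a at 0.75 (-0.065 to 1.57), and neither passed (adjusted p = 0.999 each). None of these 4 differences passed in any of the 16 alternatives. Without KO LP replicate 3, which has the lowest Cdk6 and Ccnd1 of its group, Ccnd1 was at -0.60, Cdkn1a at 0.34, Cdk6 at -0.40 and Rb1 at 0.61. Mature luminal markers summed to between 1020 and 2010 CPM in KO LP and between 566 and 928 CPM in WT LP. Of 12 such markers 11 were tested, all 11 were above 0, 8 had an unadjusted p under 0.05 and none passed (edgeR), with a median of 1.14, and none of the 12 was at 0 in a whole group. Of 10 fibroblast markers 9 were tested, all 9 were above 0, 2 had an unadjusted p under 0.05 and none passed, with a median of 0.67 and sums of 182 to 723 CPM in KO LP and 138 to 490 CPM in WT LP. The part of mature luminal or fibroblast RNA in these values was not tested. The sizes of the 4 differences varied between pairs of replicates, with n = 2 libraries a genotype in each pair. Ccnd1 was at -0.49 in replicates 1 and 2 and -1.88 in replicates 3 and 4, Cdkn1a at 0.38 and 0.93, Cdk6 at -0.34 and -0.66, and Rb1 at 0.20 and 0.98. The adjusted p of these values ran from 0.135 to 0.999, so that none passed within a pair.

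In basal cells Ccnd2 averaged 143 ± 35.0 CPM in KO and 96.5 ± 41.9 CPM in WT (log2 fold change 0.59, 95% interval -0.15 to 1.33), and Cdkn1b was at 0.96 (-0.71 to 2.64). Ccnd1 was at -0.52 (-1.83 to 0.79), and at -0.048 without KO basal replicate 3 and WT basal replicate 2 together. Rb1 was at -0.63 with all libraries, -0.031 without WT basal replicate 2 and 0.20 without both. Without both Cdk4 was at -0.034, against -0.66 with all libraries, and Cdkn2c at 1.39, against -1.14. Luminal progenitor markers summed to between 212 and 2330 CPM in KO basal and between 326 and 11400 CPM in WT basal, where replicate 2 was the highest library of each genotype. Of 12 such markers 10 were tested, none was above 0, 1 had an unadjusted p under 0.05 and none passed (edgeR), with a median of -1.51. All 12 basal markers were tested and above 0, 2 had an unadjusted p under 0.05 and none passed, with a median of 0.25. The part of luminal progenitor RNA or of basal cell content in these differences was not tested. Cdkn1a averaged 249 ± 91.1 CPM in KO basal and 246 ± 101 CPM in WT basal, a log2 fold change of 0.027 with an interval of -0.78 to 0.83. In ML cells all 8 tested genes lay between -0.54 and 0.41. Within replicates 1 and 2 they ran from -1.39 to 0.66 and within replicates 3 and 4 from -1.41 to 0.82. Cdk6, at -0.069 over all 8 ML libraries, was at 0.66 (adjusted p = 1) in the first pair and -1.41 (adjusted p = 0.0687) in the second.

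Whether the KO to WT difference changed from one population to another was tested as an interaction over the 24 libraries, which also compares the population contrasts of KO and WT cells. edgeR called 0 of the 10 genes and 0% of 14082 genes for basal minus LP, for basal minus ML and for LP minus ML. Unadjusted, 980, 970 and 186 genes were under 0.05, and 1, 0 and 0 of the 10. The 1 was Rb1 for basal minus LP (-1.24, SE 0.55, unadjusted p = 0.0309, edgeR adjusted p = 0.645). DESeq2 called 44, 42 and 1 genes and voom 0, 1 and 0, none of them among the 10. In the main fits Ccnd1 in basal over LP, Cdkn1a in LP over ML and Cdk6 against basal cells passed in 1 genotype each. Under some alternatives each passed in both genotypes, and none of these calls was shown to differ between genotypes.

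Several of the 10 genes moved with the replicate number that the sample titles give, across genotypes and populations. Ccnd1 was lowest in replicate 3 in 6 of 6 groups, with a mean deviation of -1.27 log2 units from its group mean. Cdk4 and Cdkn1b were lowest in replicate 3 in 5 of 6 groups each, and Cdkn2c in 4. Cdkn1a was highest in replicate 3 in 4 of 6 groups. Replicate 3 also had the lowest library total of every group. The summed level of 22 S phase and mitosis genes was highest in replicate 2 in each group, from 756 to 1000 CPM in KO and from 513 to 750 CPM in WT, and Cdk4 was highest in replicate 2 in 4 of 6 groups. The part of depth or of cycling cells in these values was not tested. The replicate tags of the KO ML samples differ from their titles, so the numbers there rest on the titles.

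**Figure D5:**
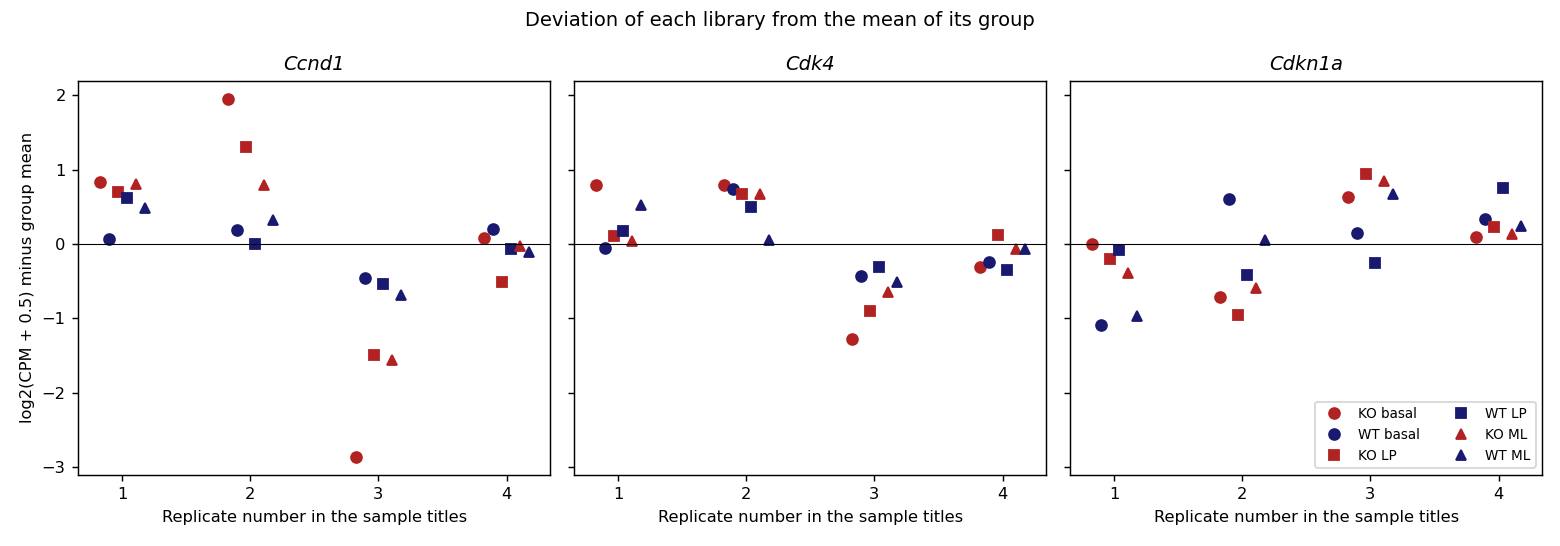
Deviation of each library from its group mean, in log2(CPM + 0.5), for Ccnd1, Cdk4 and Cdkn1a by replicate number, with 1 symbol for each of the 6 groups. All 6 groups have their lowest Ccnd1 in replicate 3, down to KO basal, and Cdkn1a tends the other way.

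Other genes of the same pathway were taken from lists and described in the same fits. In KO against WT edgeR called 1 of them, Hspa1b in the list of stress genes, and DESeq2 and voom also called 1 gene of that list and 0 of the others. The edgeR call of Hspa1b (-1.46, adjusted p = 0.045) held in 3 of 16 alternatives and was lost without any 1 of the 8 ML libraries. Of the other INK4 genes, Cdkn2a was at most 0.525 CPM and Cdkn2b at most 1.02 CPM in any library, too low to test. Cdkn2d, for p19 INK4D, averaged 6.94 ± 6.63 CPM in KO basal and 4.19 ± 2.40 CPM in KO LP, with basal over LP at 0.81 (adjusted p = 0.645). It averaged 15.1 ± 17.5 CPM in WT basal, 2.04 ± 1.43 CPM in WT LP and 6.21 ± 3.32 CPM in WT ML, and in WT cells basal over LP passed (2.92, SE 0.87, edgeR adjusted p = 0.0317). Without WT basal replicate 2 it was 1.70 (adjusted p = 0.128), and it was also lost without WT LP replicate 1, 2 or 4 (adjusted p from 0.0688 to 0.0777). Of 5 genes for cyclins E and A with CDK2, 4 or 5 were tested in each contrast and 0 passed (edgeR; 2 unadjusted, both in KO basal over LP, where DESeq2 called 1 and voom 0). Of the 22 S phase and mitosis genes 21 were tested and 0 passed in each population contrast, with at most 1 unadjusted in any, and medians from -0.44 to 0.78. DESeq2 called 1 of them lower in WT basal than in LP and 1 lower in WT basal than in ML, and voom 1 higher in WT LP than in ML. In KO over WT basal 17 of the 22 were tested, 14 were above 0 and 0 passed (edgeR; 1 unadjusted, 0 with DESeq2 and voom), with a median of 0.61 against 0.011 for all genes.

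Of 12 other genes for pocket proteins, E2F and DP factors, edgeR called 0 in KO cells, with 1 unadjusted in basal over LP and 1 in basal over ML, while DESeq2 called 1 and 0 there and voom 1 and 2. In WT cells Tfdp2, an E2F partner, was higher in WT basal than in LP (1.03, edgeR adjusted p = 0.0173) and ML (1.07, edgeR adjusted p = 0.00986). In the same list E2f2 was lower in WT basal than in ML, at 0.146 ± 0.291 CPM in WT basal against 2.81 ± 2.25 CPM in WT ML. The Tfdp2 call against LP was lost without WT LP replicate 1 (adjusted p = 0.0522) or 2 (adjusted p = 0.0515), and the E2f2 call without WT basal replicate 1 or 4 or WT ML replicate 2 (adjusted p from 0.0689 to 0.0958). WT basal over ML had 2 higher and 2 lower in this list, and WT basal over LP 1 higher. Of 10 genes of cyclin and p27 turnover and CDK activation, Mnat1, a subunit of the kinase that activates CDKs, was lower in basal than in ML cells in KO (-1.57, edgeR adjusted p = 0.044) and WT (-1.90, edgeR adjusted p = 0.0103). It was also lower in WT basal than in LP (-1.67, edgeR adjusted p = 0.0295). Fbxw7, the receptor that marks cyclin E for destruction, was higher in WT LP than in ML (1.33, edgeR adjusted p = 0.00526) and higher in WT basal than in ML (0.86, edgeR adjusted p = 0.0353). The Mnat1 call of WT basal over LP was lost without WT LP replicate 1, 2 or 4 (adjusted p from 0.0503 to 0.0881), and that of KO basal over ML held in 8 of 18 alternatives and was lost without KO basal replicate 1 or 4, KO LP replicate 1, 2 or 4 or any KO ML library (adjusted p up to 0.113). The Fbxw7 call of WT basal over ML held in 10 of 18 and was lost without WT basal replicate 1, 3 or 4 or WT ML replicate 1, 2 or 4 (adjusted p up to 0.114).

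Of 16 p53 targets other than Cdkn1a, 14 were tested in the KO contrasts and 16 in the WT contrasts. KO basal over LP called 2 higher and 1 lower, KO basal over ML 3 and 2, and KO LP over ML 0 (edgeR; 5 unadjusted, while DESeq2 and voom each called 1 higher and 1 lower). WT basal over LP called 1 higher and 2 lower, WT basal over ML 1 and 4, and WT LP over ML 0 and 4. Perp, a desmosome protein, was higher in basal than in ML cells in KO (1.75, edgeR adjusted p = 0.00429) and WT (1.66, edgeR adjusted p = 0.000548), as Cdkn1a was. Unlike Cdkn1a, Perp was also higher in basal than in LP cells in KO (2.61, edgeR adjusted p = 0.000297) and WT (3.27, edgeR adjusted p = 3.44e-06). Perp was lower in WT LP than in ML (-1.61, edgeR adjusted p = 0.00171), a contrast in which Cdkn1a did not pass and lay above 0. Trp53inp1, a stress protein, was lower in basal than in ML cells in KO (-2.74, edgeR adjusted p = 0.000319) and WT (-1.92, edgeR adjusted p = 0.0232). It was also lower in basal than in LP cells in KO (-2.43, edgeR adjusted p = 0.0011) and WT (-1.78, edgeR adjusted p = 0.0463). The WT calls of Trp53inp1 held in 13 and 7 of 18 alternatives, in that order. Zmat3 was lower in WT basal than in ML (-1.71, edgeR adjusted p = 0.00148) and lower in WT LP than in ML (-1.74, edgeR adjusted p = 0.00293). Eda2r was at 0 CPM in all 4 WT basal libraries and averaged 1.39 CPM in WT LP. The list thus had calls in both directions.

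Of 14 upstream regulators of D cyclins and inhibitors 13 were tested. KO basal over LP called 5 higher and 1 lower, KO basal over ML 5 and 3 and KO LP over ML 4 and 3. WT basal over LP called 4 higher and 1 lower, WT basal over ML 5 and 2 and WT LP over ML 4 and 3. Myc averaged 841 ± 228 CPM in KO basal and 620.4 ± 116 CPM in WT basal. Myc was higher in basal than in ML cells in KO (3.04, edgeR adjusted p = 1.05e-05) and WT (3.08, edgeR adjusted p = 9.68e-07). It was also higher in basal than in LP cells in KO (1.49, edgeR adjusted p = 0.00493) and WT (1.45, edgeR adjusted p = 0.000704). Trp63, the basal p53 family factor, which is also in the list of basal markers, was higher in basal than in LP cells in KO (9.65, edgeR adjusted p = 1.48e-05) and WT (7.31, edgeR adjusted p = 2.86e-05). The hormone receptor Pgr was lower in LP than in ML in KO (-2.66, edgeR adjusted p = 0.00354) and WT (-4.13, edgeR adjusted p = 2.29e-05). Foxo1, which activates Cdkn1b in several cell types, was higher in LP than in ML in KO (1.36, edgeR adjusted p = 0.004) and WT (1.91, edgeR adjusted p = 0.000137). It was also higher in basal than in ML cells in KO (1.73, edgeR adjusted p = 0.000128) and WT (1.55, edgeR adjusted p = 0.000283). Immediate early and dissociation stress genes summed to between 12400 and 16500 CPM in KO basal and between 8040 and 17000 CPM in WT basal. Their sums were between 5880 and 11000 CPM in KO LP, 3600 and 8370 CPM in WT LP, 7480 and 11200 CPM in KO ML, and 8920 and 10300 CPM in WT ML. Every KO basal sum was above every KO ML sum, while WT basal and WT ML sums overlapped, as did KO LP and KO ML sums. Every WT LP sum was below every WT ML sum. The part of stress in the Cdkn1a values was not tested.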

How the data were processed

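The deposited table holds expected counts (estimated counts per gene, not normalized) that the authors made from their reads, in 24 library columns beside a gene length. Tools listed by the submitters' processing notes are cutadapt, STAR and RSEM, with mm10 as build. No source used here gives their versions, roles, settings or strand. Per the labels' protocols, 0.5 to 2 ng of RNA was amplified without molecular identifiers, so limits from counts cover counting error only. The study's design text calls the replicates biological.

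Expected counts were rounded. The 3 rows that name no gene, with 5 counts in all, stayed out of library sizes and tests. Tests used R 4.3.3 and edgeR 4.0.16: two-sided quasi-likelihood F-tests on TMM-scaled libraries, after filterByExpr with its defaults, with robust estimation and p-values adjusted by Benjamini-Hochberg over all genes tested, at 0.05. KO was compared with WT in the 8 libraries of a population, populations in the 12 libraries of a genotype, and KO effects between populations in all 24. DESeq2 1.42.0, limma 3.58.1 (voom with sample weights), other scaling, no filter, a replicate block, pairs of replicates and each library left out were the alternatives. The edgeR steps were tested on simulated counts with known changes. Levels are CPM on the scaling of 24 libraries, and per kilobase of the deposited length between genes. Positions are from GENCODE M21 (mm10), promoters from RefSeq (GRCm38.p6).

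The 10 genes and the lists were chosen with earlier results of these data known. Named were all 10, up to 2 called genes per list and comparison with the smallest p, the other INK4 genes, and the 3 genes most like each of Ccnd1, Ccnd2, Cdkn1a and Cdkn1c over the 24 libraries. A list gene named for 1 comparison was also given in others. Not every gene that met this rule was named, Esr1 among them. Same-numbered KO and WT libraries, by the titles, deviated together in every pair in LP (r from 0.119 to 0.354) and ML (0.121 to 0.333), so the numbers were taken to pair them there, and not in basal cells or between populations. The rule was r over 0.1 in every pair. In basal cells 3 of 4 pairs met it (r from 0.0571 to 0.14). Pairs that correlated best with their own number were 4 of 4 in basal cells, 3 in LP and 4 in ML. The KO over WT values given for LP and ML are still from fits without a replicate term. The replicate block changed no call of the 10 genes in LP or ML.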

Additional observations from a re-analysis of the deposited data

Results flagged for a closer look

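In 7 of 60 groups of 4 libraries (10 genes in 6 groups) 1 library lay far from the others by Dixon's criterion. For independent, normally distributed values chance alone meets it in about 5% of groups, or 1 in 20. The 10 genes share libraries and some were near 0 CPM, so 7 of 60 is not a test against that share. Ccnd2 was 14.2 CPM in WT ML replicate 2, with the nearest library at 2.37 CPM. Cdk6 was 90.9 CPM in WT ML replicate 2, with the nearest at 100 CPM in a tight group. Cdk6 was 340 CPM in KO LP replicate 3, with the nearest at 452 CPM. Cdkn1b was 14 CPM in WT ML replicate 1, with the nearest at 9.79 CPM. Cdkn1c was 4.42 CPM in WT LP replicate 4 (nearest 0.892 CPM) and 33.0 CPM in KO basal replicate 4 (nearest 5.44 CPM). Cdkn2c was 33.2 CPM in WT basal replicate 2 (nearest 6.09 CPM), the library whose luminal progenitor markers summed to 11400 CPM.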

How the results depend on the processing

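Of 118 values of the 10 genes (a gene in a comparison), 16 passed and none of these changed sign under any alternative. Of the 102 that did not pass, 14 passed under at least 1 alternative, and 47 changed sign while not passing. In KO against WT none of the 10 passed under any alternative run. The number that passed in WT basal over ML was 5 with no expression filter, against 3. In WT LP over ML it was 4 with voom and 4 with the replicate block, against 2. In KO basal over ML it ran from 1 to 3 as each library was left out, against 2, and was 1 without KO basal replicate 3 or KO ML replicate 1. Between populations 3 of 4 same-numbered pairs correlated over 0.1 in each WT contrast and in KO LP over ML and 2 of 4 in the other KO contrasts, so the numbers were not taken to pair these libraries, although the study may have sorted the 3 populations from the same pools. There the replicate block added Ccnd1 in KO basal over LP (-1.49, adjusted p = 0.00746), KO basal over ML (-1.14, adjusted p = 0.0264), WT basal over ML (-0.70, adjusted p = 0.0159) and WT LP over ML (0.88, adjusted p = 0.00744), and Cdkn1a in WT LP over ML (1.05, adjusted p = 0.0409). Every pair correlated best with its own number in the 3 WT contrasts, a hint from the data and not from the design, and 2, 2 and 3 of 4 pairs did so in the KO contrasts. Ccnd1 in WT LP over ML also passed with DESeq2 (adjusted p = 0.0368) and voom (adjusted p = 0.00113). Of 95 calls of list genes 62 passed in every alternative and none changed sign while passing. Over all genes, KO against WT in basal cells called 0 with edgeR, 21 with DESeq2, 1 with voom, 30 with no expression filter and 13 from all 24 libraries, in LP 0, and 4 with DESeq2, and in ML 1, with 11 by DESeq2, 0 with DESeq2 size factors or the replicate block, and 4 within replicates 3 and 4. WT LP over ML called 1470, and 3067 with voom. KO basal over LP called 1883, and 3145 with DESeq2, KO basal over ML 2463, and 3707 with DESeq2, and KO LP over ML 721, with 1221 by DESeq2, 2158 by voom, and 382 to 1059 as each library was left out. The interaction of basal minus LP called 0, and up to 13 as each library was left out. Without mitochondrial genes the levels were 1.3 to 1.39 times as high, and 17 of 60 moved by over 1 SD. The cause was not tested for any of these. Cdkn1c, Cdkn2c and luminal Ccnd2 had 0 counts in some libraries, and the part of depth in these counts was not tested.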
